A study of Mus musculus with 14 samples.

Results

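Aldo-keto reductases are cytosolic enzymes that use NADPH to reduce aldehydes and ketones to alcohols. The Akr1b subfamily holds aldose reductase and its relatives, which act on glucose, retinaldehyde and the aldehydes left by lipid peroxidation, and the Akr1c subfamily holds hydroxysteroid dehydrogenases that convert keto groups on steroids and other compounds. In the gut epithelium these enzymes meet dietary and lipid-derived carbonyls.

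The 9 genes described here are 4 Akr1b genes (Akr1b3, Akr1b7, Akr1b8 and Akr1b10), 4 Akr1c genes (Akr1c12, Akr1c13, Akr1c14 and Akr1c19) and Akr1a1, the aldehyde reductase. They were taken by gene symbol from a table of 54532 genes, and all 9 were among the 13846 genes that passed the filter on low counts. The genes were picked with the difference between the genotypes already known, so that difference, with the calls made on it, is given as a description and no p-value is printed for it. RNA from scraped ileal mucosa was sequenced in 7 WT and 7 IKO mice, all male and age matched, after 15 weeks on a high-fat diet (HFD). WT mice carried NCoR1 flox/flox alleles and no Cre, and IKO mice carried the same floxed alleles together with Cre recombinase under the villin promoter, which is active in the intestinal epithelium. The labels call the samples intestinal epithelial cells, but a scrape also takes other mucosal cells, in which the villin promoter does not drive Cre. In a bulk sample, fewer cells of a type and less RNA per cell cannot be told apart.

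Counts per mouse totalled 14749669 to 21557468. Levels below are CPM, the counts of a gene scaled to a common library size by TMM, and levels of different genes are compared only as the deposited FPKM, which also divides by gene length. Ncor1, the deleted gene, stood at 106 to 195 CPM in WT mice and at 31.7 to 64.0 CPM in IKO mice, with no overlap. Enterocyte markers were high in all mice, with sums of 24153 to 108750 CPM in WT and 50789 to 92972 CPM in IKO mice, and 1 of 12 was called. The share of counts from mitochondrially encoded genes was 50.3% for IKO 4, 23.9% for WT 3 and 3.49% to 10.3% for the other 12 mice. The 7 smooth muscle markers summed to 11253 CPM in WT 4, 823 CPM in IKO 1, 414 CPM in IKO 2 and 11.0 to 71.3 CPM in the remaining mice. The edgeR fit was also run without each mouse in turn and without WT 3, WT 4 and IKO 4 together. Sums, ratios and similarities between genes were also computed without these 3, while IKO 1 and IKO 2 were kept.

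The Akr1b genes lie side by side on chromosome 6 and the Akr1c genes on chromosome 13 of the mouse genome (GRCm38/mm10), and their coding sequences are alike enough that sequencing reads can fit more than 1 of them. To show how far members of a subfamily can be told apart, the same 80 coding bases, positions 475 to 554 counted from the A of the start codon, are printed for each Akr1b gene from the GENCODE M21 transcripts. In all 4 genes they run from exon 5 into exon 6 of 10, so the genomic span includes the intron between them. Capitals mark bases that differ from Akr1b7. The spans are chr6:34419039-34419409 on the plus strand for Akr1b7, chr6:34363377-34363723 on the plus strand for Akr1b8, chr6:34392062-34392390 on the plus strand for Akr1b10 and chr6:34310066-34310590 on the minus strand for Akr1b3.
Akr1b7: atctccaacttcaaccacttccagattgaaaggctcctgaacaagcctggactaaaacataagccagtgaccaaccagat
Akr1b8: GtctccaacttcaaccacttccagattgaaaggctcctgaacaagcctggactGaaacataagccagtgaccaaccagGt
Akr1b10: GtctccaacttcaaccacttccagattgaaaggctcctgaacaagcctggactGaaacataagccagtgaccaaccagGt
Akr1b3: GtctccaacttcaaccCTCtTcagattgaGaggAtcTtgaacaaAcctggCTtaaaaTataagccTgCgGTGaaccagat
The window was chosen as the longest coding run that Akr1b8 and Akr1b10 share, so their letters are the same by that choice. Each differs from Akr1b7 at 3 of the 80 positions, while Akr1b3 differs at 17. Over the whole coding sequence Akr1b8 and Akr1b10 were 84.7% identical, less than Akr1b7 and Akr1b10 at 89.2%. Over the whole coding sequence of 948 bases, Akr1b10 differed from Akr1b7 at 102 positions, Akr1b8 at 144 and Akr1b3 at 265.

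For the Akr1c genes the same coding positions fall inside exon 5 of 9, and capitals mark bases that differ from Akr1c12. The spans are chr13:4273747-4273826 on the minus strand for Akr1c12, chr13:4197016-4197095 for Akr1c13, chr13:4079081-4079160 for Akr1c14 and chr13:4238995-4239074 for Akr1c19, these last on the plus strand.
Akr1c12: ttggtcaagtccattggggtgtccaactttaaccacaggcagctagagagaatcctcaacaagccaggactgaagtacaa
Akr1c13: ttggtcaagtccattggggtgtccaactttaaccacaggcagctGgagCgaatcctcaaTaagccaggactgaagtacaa
Akr1c14: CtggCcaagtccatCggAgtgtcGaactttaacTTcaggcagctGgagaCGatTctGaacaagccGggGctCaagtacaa
Akr1c19: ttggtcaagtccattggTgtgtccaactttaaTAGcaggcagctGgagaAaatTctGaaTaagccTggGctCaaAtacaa
Akr1c12 and Akr1c13 were the closest pair among all members, with 96.2% identity over 969 coding bases and an unbroken shared run of 228 bases across exons 1 to 3. Of the 50-base stretches of the Akr1c12 transcript, 28.6% also occurred in a transcript of Akr1c13, against 1.14% of those of Akr1b7 that occurred in Akr1b10 and 0.244% that occurred in Akr1b8. None of the 50-base stretches of Akr1c14 or Akr1c19 occurred in another member. How the counting treated reads that fit 2 genes is not given in the sources used here, so the split between Akr1c12 and Akr1c13 is uncertain, and to a smaller extent that among Akr1b7, Akr1b8 and Akr1b10.

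In IKO mice Akr1b7 and Akr1b8 stood 4.30-fold and 5.09-fold higher than in WT mice, Akr1a1 stood 1.73-fold higher, and Akr1c14 stood 5.91-fold lower. The WT and IKO ranges of these 4 genes did not overlap. Of the 9 genes, these 4 were called at an adjusted p under 0.05 by edgeR's quasi-likelihood test, 3 higher and 1 lower in IKO mice, beside 8.67% of all genes tested (4.38% higher and 4.28% lower). Separate ranges were found for 3.10% of all genes, 1.83% with IKO mice higher and 1.26% with IKO mice lower. Since the genes were picked on this contrast, nothing is read from these shares. Over the 9 genes the median log2 fold change was 0.20 and 6 values were above 0, beside a median of -0.09 and 43.5% above 0 over all genes tested.

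**Figure D1:**
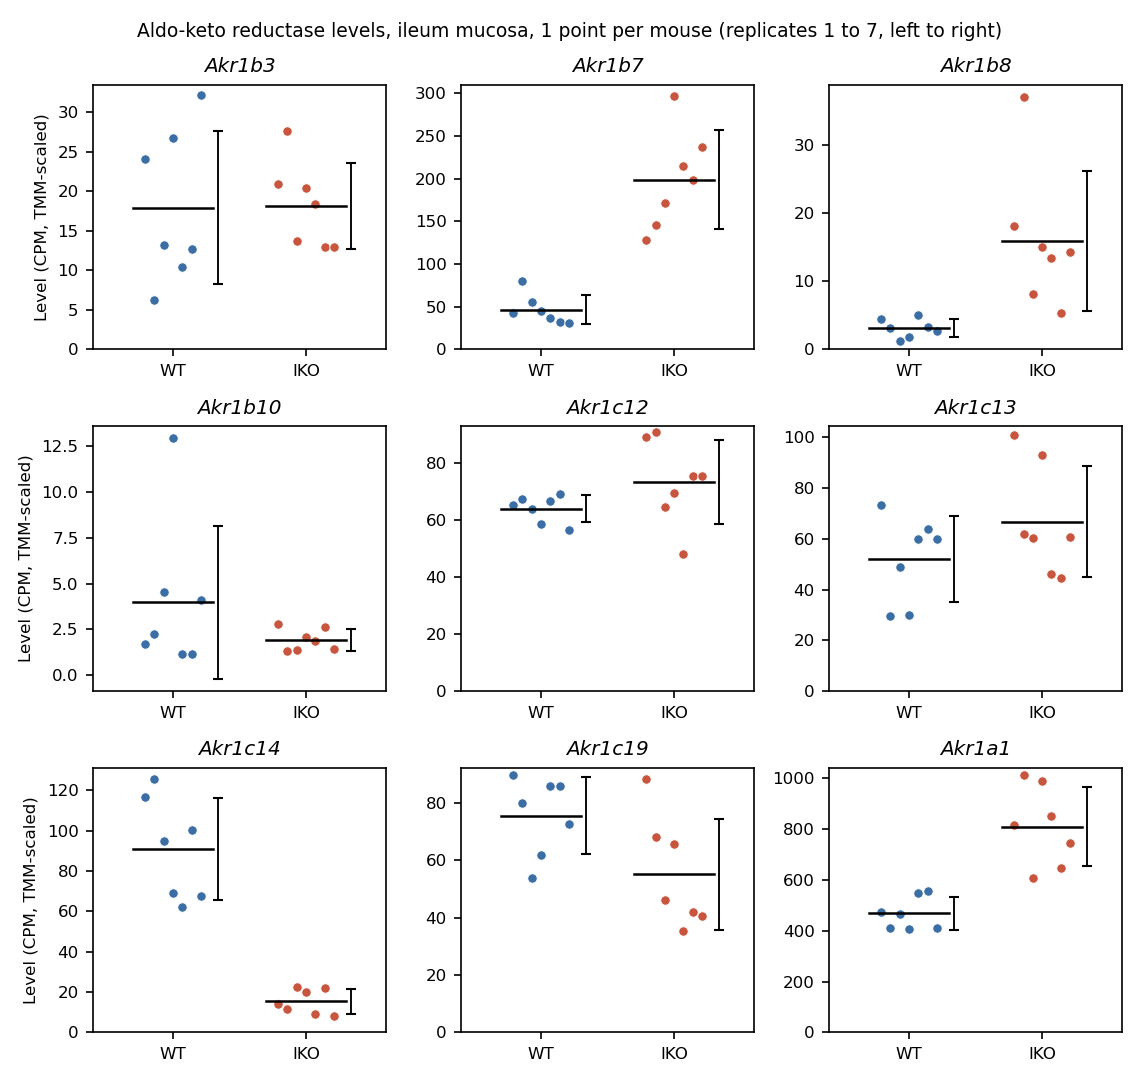
Level of each aldo-keto reductase gene (CPM, TMM-scaled, y axis, own scale per panel) in 7 WT and 7 IKO mice, 1 point per mouse, with the mean as a line and the SD as the bar to its right. The points of the genotypes are apart for Akr1b7, Akr1b8, Akr1c14 and Akr1a1, and overlap for the other 5 genes, with WT 4 alone at 12.9 CPM for Akr1b10.

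Akr1b7 (ENSMUSG00000052131, chr6:34412334-34423142, plus strand) encodes a reductase first described in vas deferens and adrenal gland, where it clears the aldehyde released in steroid synthesis. In WT mice its lowest, median and highest levels were 30.8, 42.8 and 80.0 CPM, and in IKO mice they were 128, 198 and 297 CPM. Every IKO mouse was above every WT mouse, and the lowest IKO value exceeded the highest WT value, that of WT 2. The means were 46.3 ± 17.1 CPM (SD, n = 7) and 199.1 ± 57.7 CPM (SD, n = 7), a log2 fold change of 2.10 (SE 0.25, 95% interval 1.58 to 2.63). The highest IKO value belonged to IKO 4, the mouse with 50.3% of its counts from mitochondrial genes. Over the 24 alternative fits the log2 fold change of Akr1b7 ran from 1.99 to 2.29 and it was called in all 24.

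Akr1b8 (ENSMUSG00000029762, chr6:34354119-34368463, plus strand) encodes a reductase of retinaldehyde and other lipid-derived aldehydes that was found as a protein induced by fibroblast growth factor. It was a low gene in WT mice, with 1.29, 3.16 and 5.08 CPM as lowest, median and highest level, and stood at 5.39, 14.3 and 37.1 CPM in IKO mice. The lowest IKO mouse (IKO 6) was just above the highest WT mouse (WT 5), and IKO 2 stood well above the other IKO mice. The means were 3.12 ± 1.34 CPM (SD, n = 7) in WT and 15.9 ± 10.3 CPM (SD, n = 7) in IKO mice. The log2 fold change was 2.35 (SE 0.40), which corresponds to a 95% interval of 2.83-fold to 9.16-fold. These levels rest on 19 to 630 counts per mouse. Over the 24 alternative fits the log2 fold change of Akr1b8 ran from 1.81 to 2.51, and all 24 called it.

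The remaining Akr1b genes did not separate the genotypes. Akr1b3 (ENSMUSG00000001642, chr6:34302434-34317478, minus strand) is the mouse aldose reductase, which turns glucose into sorbitol. Its WT levels of 6.18, 13.3 and 32.2 CPM (lowest, median, highest) enclosed every IKO value, the IKO mice running from 12.9 to 27.6 CPM. The means were 17.9 ± 9.66 CPM and 18.1 ± 5.43 CPM (SD, n = 7 each), with a log2 fold change of 0.01 (SE 0.32, 95% interval -0.67 to 0.69), whose sign differed in 9 of 24 alternative fits. Akr1b10 (ENSMUSG00000061758, chr6:34384218-34396950, plus strand), a reductase closely related to Akr1b7, averaged 3.98 ± 4.17 CPM in WT and 1.94 ± 0.60 CPM in IKO mice (SD, n = 7 each). Its log2 fold change was -1.04 (SE 0.50, 95% interval -2.10 to 0.02). The WT spread came from WT 4, at 12.9 CPM, the mouse in which smooth muscle markers summed to 11253 CPM; without WT 4 the log2 fold change of Akr1b10 was -0.36, and the part of smooth muscle in this value was not tested.

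Akr1c14 (ENSMUSG00000033715, chr13:4049011-4090688, plus strand) encodes a 3-alpha-hydroxysteroid dehydrogenase, which reduces the 3-keto group of dihydrotestosterone and related steroids. Its lowest, median and highest levels were 62.1, 94.9 and 125 CPM in WT mice and 8.19, 14.2 and 22.7 CPM in IKO mice. All 7 IKO mice were below all 7 WT mice, with a wide gap between the genotypes. The means were 90.8 ± 25.2 CPM and 15.4 ± 6.19 CPM (SD, n = 7 each), a log2 fold change of -2.56 (SE 0.27, 95% interval -3.14 to -1.99). Its value over the 24 alternative fits lay between -2.70 and -2.33, and all 24 called it. It was the only member called lower in IKO mice in any of these fits.

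The other Akr1c members were not called, and of these only Akr1c19 also had a log2 fold change below 0. Akr1c12 (ENSMUSG00000021211, chr13:4268176-4279433, minus strand) was the steadiest member in WT mice, at 64.0 ± 4.74 CPM, and averaged 73.5 ± 14.7 CPM in IKO mice (SD, n = 7 each), a log2 fold change of 0.20 (95% interval -0.10 to 0.50). Akr1c13 (ENSMUSG00000021213, chr13:4191150-4205596, plus strand) averaged 52.1 ± 16.9 CPM and 66.8 ± 21.9 CPM (SD, n = 7 each), a log2 fold change of 0.36 (95% interval -0.16 to 0.88). For Akr1c12, 5 of 7 IKO mice were above the highest WT mouse and 1 was below the lowest, and for Akr1c13, 2 of 7 IKO mice were above the highest WT mouse and none was below the lowest. Akr1c19 (ENSMUSG00000071551, chr13:4228700-4252843, plus strand) averaged 75.5 ± 13.5 CPM in WT and 55.1 ± 19.3 CPM in IKO mice (SD, n = 7 each), with 4 of 7 IKO mice below the lowest WT mouse and 6 of 7 below the WT median. Its log2 fold change was -0.46 (SE 0.21, 95% interval -0.90 to -0.01), and neither the main fit nor any of the 24 alternatives called Akr1c12, Akr1c13 or Akr1c19.

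Akr1a1 (ENSMUSG00000028692, chr4:116636510-116651680, minus strand) encodes aldehyde reductase, which among other substrates reduces glucuronate on the way to vitamin C in mice. It lies outside both clusters. Its lowest, median and highest levels were 407, 467 and 555 CPM in WT mice and 608, 813 and 1010 CPM in IKO mice. The genotypes did not overlap, although the gap between WT 6 and IKO 3 was small beside the spread of the IKO mice. The means were 467 ± 63.7 CPM and 809 ± 156 CPM (SD, n = 7 each), a log2 fold change of 0.79 (SE 0.17, 95% interval 0.43 to 1.15). The call of Akr1a1 was made in 22 of 24 alternative fits and was lost with the replicate number as a block (log2 fold change 0.78) and with WT 3, WT 4 and IKO 4 left out together (log2 fold change 0.70).

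**Figure D2:**
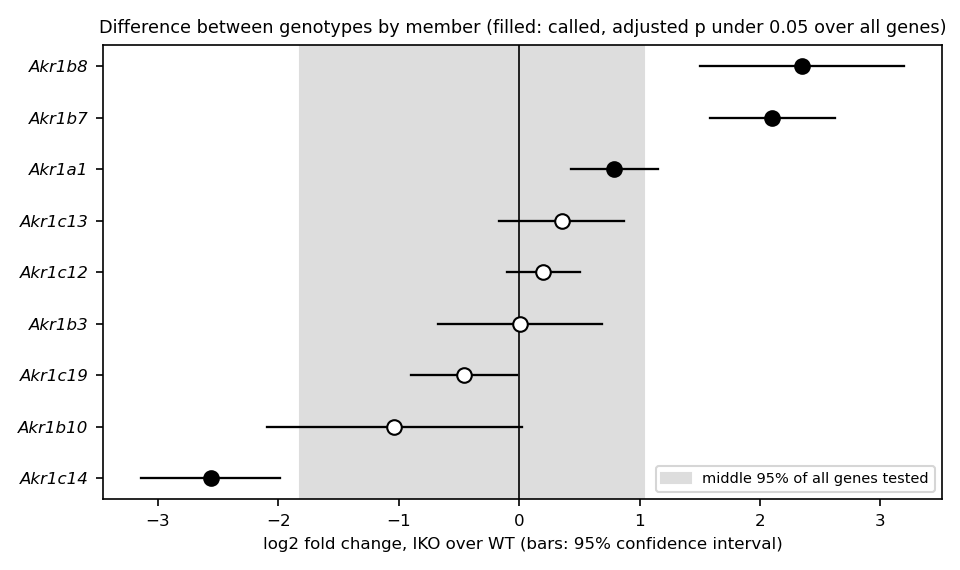
Log2 fold change of each gene, IKO over WT mice (x axis), with its 95% confidence interval as a bar, filled points marking genes called by edgeR, and the middle 95% of all genes tested (-1.82 to 1.04) shaded. Akr1b8, Akr1b7 and Akr1c14 lie outside the shaded range and the other 6 genes lie inside it.

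On a scale per length, Akr1a1 was the highest member in both genotypes. In WT mice the mean FPKM fell from 166 for Akr1a1 through 49.6 for Akr1c12, 35.6 for Akr1c13, 35.3 for Akr1b7, 27.4 for Akr1c14 and 12.5 for Akr1c19 to 2.09 for Akr1b3, 2.04 for Akr1b8 and 1.096 for Akr1b10. Each gene was compared with the next in this order within the same mice by an exact sign-flip permutation test (two-sided), with p-values adjusted over the 8 neighbours of a genotype. Akr1a1 and Akr1c12, Akr1c12 and Akr1c13, Akr1c14 and Akr1c19, and Akr1c19 and Akr1b3 differed in all 7 WT mice (exact permutation p = 0.0156, the smallest that 7 mice allow, adjusted p = 0.0312). Akr1c13 and Akr1b7 (adjusted p = 1), Akr1b7 and Akr1c14 (adjusted p = 0.146), Akr1b3 and Akr1b8 (adjusted p = 1) and Akr1b8 and Akr1b10 (adjusted p = 0.146) did not differ beyond their spread by the same exact permutation test. With 6 mice the smallest exact p is 0.0312, and without WT 3 or without WT 4 none of the 8 neighbours passed the adjustment.

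In IKO mice the order of mean FPKM was Akr1a1 (295), Akr1b7 (156), Akr1c12 (58.3), Akr1c13 (46.7), Akr1b8 (10.7), Akr1c19 (9.36), Akr1c14 (4.75), Akr1b3 (2.16) and Akr1b10 (0.549). Akr1b7 was then next to Akr1a1, and Akr1c14 was below Akr1c19, the reverse of their order in WT mice. Neighbours differed in all 7 mice for 6 of 8 steps (exact permutation p = 0.0156, adjusted p = 0.0208). As in WT mice, the order was taken from the same mice that were tested. The IKO levels are also part of the contrast on which the genes were picked, so these p-values only describe the order. The exceptions were Akr1c12 against Akr1c13 (exact permutation p = 0.0469, adjusted p = 0.0536) and Akr1b8 against Akr1c19 (exact permutation p = 0.906). Without IKO 4, an alternative added after the data were seen, 7 of 8 neighbours passed the adjustment. The FPKM of some members depends on the length used, since the deposited length of Akr1b3 was 8384 bases and that of Akr1c19 was 5892 bases, against 1387 and 1242 bases for their shortest full coding transcripts. With those shorter lengths, chosen as an alternative after the data were seen, Akr1c19 became the second gene in WT mice at 59.5 FPKM and Akr1b3 reached 12.6 FPKM, and 3 of 8 neighbours differed in WT and 4 of 8 in IKO mice. Akr1c14 then stood below Akr1c19 in WT mice too, at 36.4 FPKM against 59.5 FPKM, so the order of these 2 genes in WT mice depends on the length used. With the shorter lengths Akr1c12 was above Akr1c13 in only 5 of 7 WT mice (exact permutation p = 0.109, adjusted p = 0.175). The split of reads between Akr1c12 and Akr1c13 is also uncertain.

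**Figure D3:**
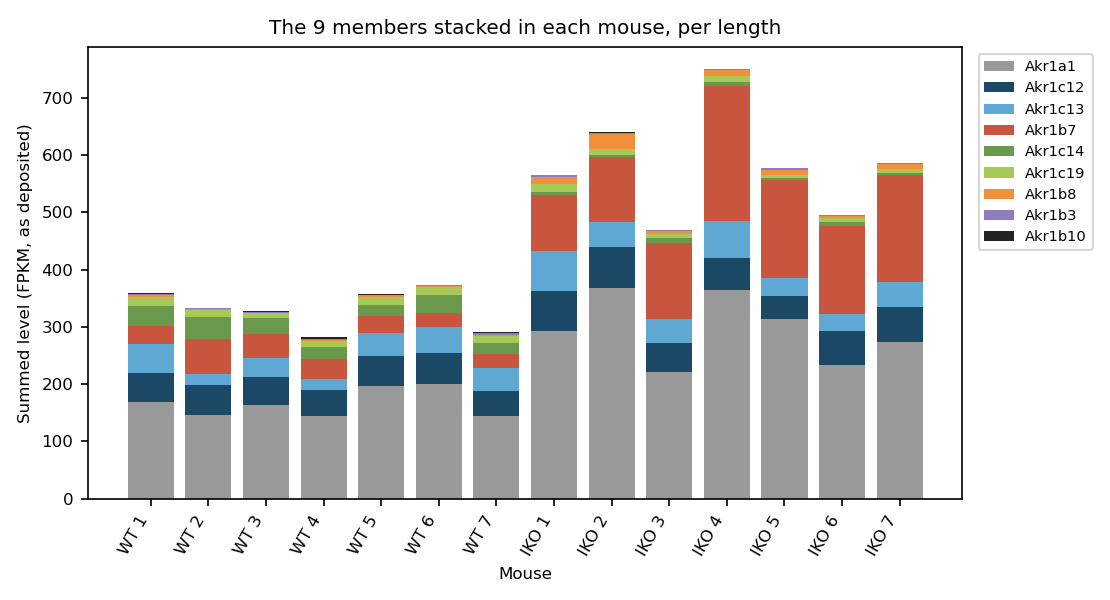
Deposited FPKM of the 9 genes stacked for each of the 7 WT and 7 IKO mice (y axis, summed FPKM, from 0). The stacks reach 283 to 374 FPKM in WT and 470 to 751 FPKM in IKO mice, with Akr1a1 at the base and a broader band of Akr1b7 in every IKO mouse.

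At the deposited lengths, the summed level of the 9 genes was 332 ± 34.7 FPKM in WT and 584 ± 93.4 FPKM in IKO mice (SD, n = 7 each). No IKO mouse fell within the WT range. The 4 Akr1b genes summed to 40.5 ± 12.1 FPKM in WT and 169.6 ± 44.7 FPKM in IKO mice (SD, n = 7 each), with WT mice at 29.3 to 64.3 FPKM and IKO mice at 114 to 248 FPKM. Most of that sum was Akr1b7, at a mean of 35.3 FPKM in WT and 156 FPKM in IKO mice. The 4 Akr1c genes summed to 125 ± 18.1 FPKM and 119 ± 25.8 FPKM (SD, n = 7 each), with ranges of 96.6 to 151 and 80.3 to 159 FPKM that overlapped, and they include Akr1c14, which stood lower in IKO mice. Without WT 3, WT 4 and IKO 4, computed after the data were seen, the sum of the 9 genes was 342 FPKM in 5 WT and 556 FPKM in 6 IKO mice, that of the Akr1b genes 39.2 and 156 FPKM, and that of the Akr1c genes 132 and 116 FPKM.

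Within the summed level at the deposited lengths, Akr1a1 held a mean share of 50.02% in WT and 50.38% in IKO mice. The mean share of Akr1b7 was 10.7% in WT and 26.8% in IKO mice, and that of Akr1c14 was 8.23% and 0.846%. The ratio of Akr1b7 to Akr1c14 FPKM, which does not depend on the scaling of a library, was 1.31 ± 0.34 in WT and 38.4 ± 20.9 in IKO mice (SD, n = 7 each), with 1.65 as the highest WT and 19.1 as the lowest IKO value. Inside the Akr1c cluster the ratio of Akr1c14 to Akr1c19 was 2.23 ± 0.65 in WT and 0.548 ± 0.27 in IKO mice (SD, n = 7 each) at the deposited lengths, and no IKO value (at most 0.947) reached the lowest WT value (1.32). Without WT 3, WT 4 and IKO 4 the mean ratio of Akr1b7 to Akr1c14 was 1.21 in WT and 38.6 in IKO mice, and that of Akr1c14 to Akr1c19 was 2.07 and 0.545. Another length changes these ratios by the same factor in both genotypes. This does not hold for the shares or for sums over several genes, which were not recomputed with the shorter lengths. With those lengths the mean of Akr1c19 was 59.5 FPKM in WT and 44.4 FPKM in IKO mice, and that of Akr1a1 was 322 and 571 FPKM. The near-equal shares of Akr1a1 and sums of the Akr1c genes are therefore given only for the deposited lengths.

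The levels were next compared between mice of the same genotype, a measure on which the genes were not chosen. Over 36 pairs in each genotype, 72 tests in all, no pair passed the adjustment for multiple testing, and 6 pairs in WT and 4 in IKO mice had an unadjusted exact permutation p under 0.05. The highest value was that of Akr1b8 and Akr1c19 in WT mice (Pearson r = 0.96, exact permutation p = 0.00099, adjusted p = 0.0714, Spearman rho = 0.96, exact permutation p = 0.0028, adjusted p = 0.20, n = 7), and r was 0.80 without the 2 mice farthest from the median of Akr1b8. In IKO mice the same pair had r = 0.57 (exact permutation p = 0.192) and rho = 0.68 (exact permutation p = 0.11). Akr1b7 and Akr1b8, both higher in IKO mice, had r = -0.28 (exact permutation p = 0.548) and rho = -0.36 (exact permutation p = 0.444) in WT mice. In IKO mice they had r = -0.30 (exact permutation p = 0.531) and rho = -0.29 (exact permutation p = 0.556), so no joint variation inside a genotype was detected. For Akr1b7 and Akr1c14, which moved in opposite directions between the genotypes, r was 0.59 in WT mice (exact permutation p = 0.168; rho = 0.54, p = 0.236) and 0.0079 in IKO mice (exact permutation p = 0.989; rho = -0.21, p = 0.662). The lowest value was between Akr1b10 and Akr1c19 in WT mice (r = -0.80, exact permutation p = 0.0216, adjusted p = 0.26, rho = -0.86, exact permutation p = 0.0238, adjusted p = 0.34, and r = -0.87 without the 2 mice farthest from the median), where WT 4 was highest for Akr1b10.

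**Figure D4:**
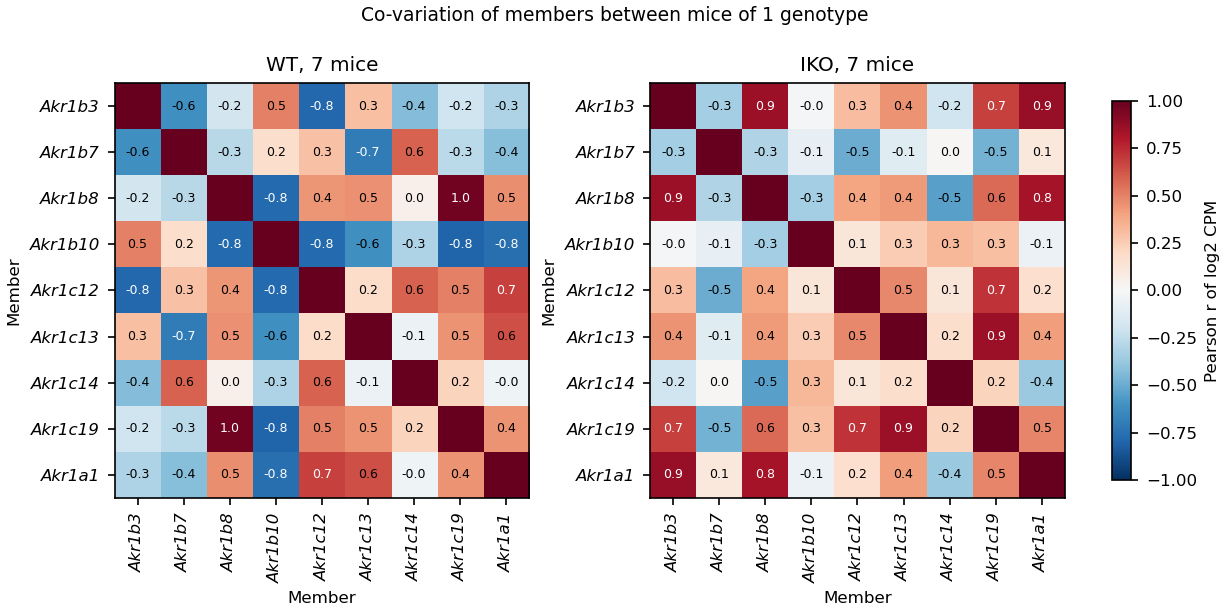
Pearson r of log2 CPM between each pair of genes over the 7 WT mice (left) and the 7 IKO mice (right), on a colour scale from -1 to 1, with the value printed in each cell off the diagonal. Akr1b8 and Akr1c19 stand out in WT mice, Akr1b10 is negative against most members in WT mice, and no pair passed the adjustment over 72 tests.

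To find genes that varied with a member from mouse to mouse, log2 CPM with the genotype mean removed was correlated over all 14 mice. The candidates were the 8218 or 8219 other genes at a mean log2 CPM of at least 3. The mice share library scaling, and these values are descriptions without a test. Each gene named below was 1 of the 2 highest among its candidates, so a high r follows in part from the pick. Akr1b8 was nearest to Nqo1, a quinone reductase and well-known NRF2 target (r = 0.91), and to Cyc1, the cytochrome c1 subunit of respiratory complex III (r = 0.89). Akr1a1 was nearest to Vdac1, the channel of the outer mitochondrial membrane (r = 0.98), and to Nmt1, an N-myristoyltransferase (r = 0.92). Akr1b3 was nearest to the purine synthesis enzyme gene Paics (r = 0.92) and the tubulin gene Tubb5 (r = 0.90). Akr1b7 was nearest to the kinase genes Pim3 (r = 0.88) and Dgka (r = 0.87). Akr1c13 was nearest to Wdr61 (r = 0.92) and Gm4737 (r = 0.88). Akr1c14 was nearest to Zfp426 (r = 0.76) and Krba1 (r = 0.72). Akr1c12 was nearest to Hprt (r = 0.78) and Rab2a (r = 0.78), and Akr1c19 to Pdap1 (r = 0.79) and Ahcy (r = 0.78). Without WT 3, WT 4 and IKO 4 the r of these pairs ran from 0.68 to 0.99 over 11 mice, with the lowest for Akr1c19 and Ahcy. These 11 mice are part of the 14 on which the genes were picked, so the values are no independent check.

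The genes on either side of the clusters were then examined. The Akr1b genes span 120.7 kb. Of 24 other genes starting within 500 kb, 6 passed the filter and 1 was called, beside 8.67% of all genes tested. That gene was Bpgm, which encodes the enzyme that makes 2,3-bisphosphoglycerate, at 68.5 ± 13.0 CPM in WT and 113 ± 16.0 CPM in IKO mice (SD, n = 7 each; log2 fold change 0.72, SE 0.15, edgeR adjusted p = 0.012), higher in all 7 IKO mice than in any WT mouse. It lies at chr6:34476207-34505613, on the far side of Akr1b7 from the other Akr1b genes. The Akr1c genes span 230.4 kb, and of 33 other genes within 500 kb, 6 passed the filter and none was called by edgeR. At an unadjusted p under 0.05 edgeR had 1 of the 6, and DESeq2 called the same gene, Net1, named here after its values were seen (380 ± 143 CPM in WT and 629.9 ± 165 CPM in IKO mice, SD, n = 7 each, edgeR adjusted p = 0.073). Akr1e1, another aldo-keto reductase gene in this interval, stood at 33.8 ± 12.5 CPM in WT and 28.4 ± 4.53 CPM in IKO mice (SD, n = 7 each, edgeR adjusted p = 0.39). With 6 genes tested beside each cluster, nothing is read from these counts.

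The 250 bases before the RefSeq transcript start (GRCm38.p6) were searched on both strands, in the 8 members that have an entry, for the antioxidant response element core TGACNNNGC, the nuclear receptor hexamer AGGTCA, its extended form CAAGGTCA, which contains AGGTCA, and the TATA box TATAAA. Because Akr1b7 and Akr1b8 were higher and Akr1c14 lower in IKO mice, their windows are printed, 5′ to 3′ along the gene, with matches in capitals. They lie at chr6:34412112-34412361, chr6:34353896-34354145 and chr13:4059341-4059590, all on the plus strand. The last 28 bases for Akr1b7 and the last 27 for Akr1b8 fall inside the gene as deposited, and the Akr1c14 window lies wholly inside the deposited Akr1c14 gene, whose annotation begins farther upstream.
Akr1b7: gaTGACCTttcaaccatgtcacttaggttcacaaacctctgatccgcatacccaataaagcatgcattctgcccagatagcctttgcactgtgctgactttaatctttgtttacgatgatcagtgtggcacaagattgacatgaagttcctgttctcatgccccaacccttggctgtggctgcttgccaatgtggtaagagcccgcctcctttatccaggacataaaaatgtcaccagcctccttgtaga
Akr1b8: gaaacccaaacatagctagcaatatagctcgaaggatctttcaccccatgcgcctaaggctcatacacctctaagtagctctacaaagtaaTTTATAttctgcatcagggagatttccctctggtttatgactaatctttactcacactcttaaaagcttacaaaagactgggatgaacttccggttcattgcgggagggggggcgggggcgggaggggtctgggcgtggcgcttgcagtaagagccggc
Akr1c14: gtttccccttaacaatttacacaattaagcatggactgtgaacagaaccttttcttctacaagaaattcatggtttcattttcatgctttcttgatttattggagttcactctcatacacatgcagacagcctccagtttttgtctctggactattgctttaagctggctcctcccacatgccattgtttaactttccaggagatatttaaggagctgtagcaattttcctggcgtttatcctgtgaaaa
The Akr1b7 window held the hexamer on the opposite strand, 248 to 243 bases before the start, and the Akr1b8 window held TATAAA on the opposite strand, 159 to 154 bases before it. Akr1b10, which was not called, also held the hexamer, 215 to 210 bases before its start. The letters of the 4 motifs were not found in the windows of Akr1c12, Akr1c13, Akr1c14, Akr1c19 or Akr1a1. Over 32851 promoter windows of the same length, 10.2% held TGACNNNGC, 14.02% held AGGTCA, 1.33% held CAAGGTCA and 12.4% held TATAAA.

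Lists of genes for enzymes and related proteins that share a substrate, a cofactor or a pathway with the members were described in the same fit. Over 7 lists, 77 genes outside the members were tested and 20 were called, 18 higher and 2 lower in IKO mice, which is 26.0% beside 8.67% of all genes tested. The lists were chosen with earlier results of these data known, so nothing is read from these shares. For the same reason the edgeR adjusted p-values of listed genes are given as descriptions. A listed gene is said to rise or fall only where edgeR called it. Leaving out 1 mouse gave 12 to 21 called genes (12 without WT 7, without IKO 1 or without IKO 5, and 13 without WT 4), and with WT 3, WT 4 and IKO 4 left out together 9 were called. Of 11 other aldo-keto reductase and related genes in the table, 3 passed the filter and none was called by edgeR. At an unadjusted p under 0.05 edgeR had 1 of the 3, Kcnab2, a potassium channel subunit named here after its values were seen (log2 fold change -1.01, edgeR adjusted p = 0.088), and DESeq2 called none. The highest of them was Akr7a5, which acts on succinic semialdehyde, at 83.5 ± 14.2 CPM in WT and 93.3 ± 37.8 CPM in IKO mice (SD, n = 7 each; edgeR adjusted p = 0.64).

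Among 18 other enzymes of aldehydes and carbonyls, 6 were called higher in IKO mice and none lower. The median log2 fold change was 0.48, and 4 of the 18 were below 0. Adh1, an alcohol dehydrogenase that also oxidises retinol, rose from 49.4 ± 24.9 to 219 ± 98.4 CPM (log2 fold change 2.15, SE 0.37, edgeR adjusted p = 0.0045). Aldh1a1, which oxidises retinaldehyde to retinoic acid, rose from 280 ± 88.0 to 946 ± 185 CPM (log2 fold change 1.76, SE 0.22, edgeR adjusted p = 0.00044), and all 7 IKO mice were above all WT mice. Both were called in all 24 alternative fits. Among the other 4 that rose, the call of Aldh3a2 was lost in 11 of the 14 fits that left out 1 mouse (adjusted p 0.051 to 0.099) and that of Aldh3b1 in 6 (adjusted p 0.051 to 0.067).

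Of 10 enzymes that supply NADPH, the cofactor of the reductases, 4 rose and none fell, with a median log2 fold change of 0.55. Me1, malic enzyme, rose from 18.7 ± 8.07 to 83.9 ± 39.9 CPM (log2 fold change 2.16, SE 0.34, edgeR adjusted p = 0.0026). The pentose phosphate enzymes G6pdx (log2 fold change 0.85, edgeR adjusted p = 0.0080) and Pgd (log2 fold change 0.85, edgeR adjusted p = 0.0088) rose as well, and so did Idh1 (log2 fold change 0.89, edgeR adjusted p = 0.019). For each of these 4 genes all 7 IKO mice were above all WT mice. The call of Idh1 was lost with the replicate block (edgeR adjusted p = 0.062) and with WT 3, WT 4 and IKO 4 left out together (edgeR adjusted p = 0.079).

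Of 6 genes of the polyol and fructose pathway, which begins with the aldose reductase Akr1b3, 1 rose and 1 fell. Sord, which turns sorbitol into fructose, rose from 297 ± 68.4 to 529 ± 110.2 CPM (log2 fold change 0.84, SE 0.19, edgeR adjusted p = 0.018), beside a log2 fold change of 0.01 for Akr1b3. The call of Sord was lost with the replicate block (edgeR adjusted p = 0.068) and with WT 3, WT 4 and IKO 4 left out together (edgeR adjusted p = 0.081). Slc2a2, the glucose and fructose transporter of the basolateral membrane, fell from 162 ± 125.9 to 37.4 ± 29.4 CPM (log2 fold change -2.11, SE 0.60, edgeR adjusted p = 0.042), and its call was lost in 10 of the 14 fits that left out 1 mouse, with adjusted p from 0.051 to 0.090.

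Of 16 tested genes of steroid enzymes and steroid transport, 3 were called higher in IKO mice and none lower. The median log2 fold change was 0.39, and 6 of the 16 were below 0. Hsd17b11, a lipid droplet dehydrogenase, rose from 539 ± 188 to 1267 ± 443 CPM (log2 fold change 1.23, edgeR adjusted p = 0.032), a call lost in 8 of the 14 fits that left out 1 mouse (adjusted p 0.052 to 0.072). Hsd17b2, which inactivates estradiol and testosterone, rose from 62.5 ± 27.96 to 125 ± 27.5 CPM (log2 fold change 1.00, edgeR adjusted p = 0.023), a call lost without WT 7 (adjusted p = 0.054) and without IKO 5 (adjusted p = 0.056). The third, Hsd17b4 (log2 fold change 0.79, edgeR adjusted p = 0.027), lost its call in 6 of these fits (adjusted p 0.051 to 0.057). Akr1b and Akr1c enzymes also reduce prostaglandins. Of 9 tested prostaglandin genes, which include transporters as well as enzymes, 2 had a log2 fold change above 0 and 7 below. None of the 9 was called higher and 1 was called lower, which is 11.1% beside 8.67% of all genes tested. That gene was Hpgds, the hematopoietic prostaglandin D synthase, which fell from 4.09 ± 1.00 to 1.65 ± 0.84 CPM (log2 fold change -1.30, SE 0.32, edgeR adjusted p = 0.022), a call lost without IKO 5 (adjusted p = 0.056). It was also lost with no filter on low counts (edgeR adjusted p = 0.068) and with WT 3, WT 4 and IKO 4 left out together (edgeR adjusted p = 0.090). Tuft cells express Hpgds, and the summed level of 7 tuft cell markers was 32.4 to 83.4 CPM in WT and 17.0 to 39.7 CPM in IKO mice. Of 5 tested, 1 was called lower, beside 4.28% of all genes tested. The part of tuft cells, or of any other cell type, in the Hpgds value was not tested.

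Some aldo-keto reductases are NRF2 targets, a group of antioxidant defence genes. Of 15 other genes listed with NRF2, which include Nfe2l2 (NRF2 itself) and its inhibitor Keap1, 4 were called higher and none lower. The median log2 fold change was 0.57, and 3 of the 15 were below 0. Gstp1, a glutathione transferase, rose from 114 ± 23.9 to 241 ± 80.9 CPM (log2 fold change 1.07, SE 0.22, edgeR adjusted p = 0.0098), and all 7 IKO mice were above all WT mice. The call of Gstp1 was lost with the replicate block (edgeR adjusted p = 0.053). Prdx1, a peroxiredoxin, rose from 596 ± 114.5 to 1013 ± 224 CPM (log2 fold change 0.77, edgeR adjusted p = 0.025), and its call was lost in 3 of the 14 fits that left out 1 mouse (adjusted p 0.051 to 0.061). The calls of Gclc and Gclm, the subunits of glutamate-cysteine ligase (log2 fold change 0.87 and 0.76), were each lost in 12 of the 14 fits (adjusted p 0.053 to 0.079). Nqo1, the gene nearest to Akr1b8 from mouse to mouse, had a log2 fold change of 0.52 and was not called (edgeR adjusted p = 0.090).

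**Figure D5:**
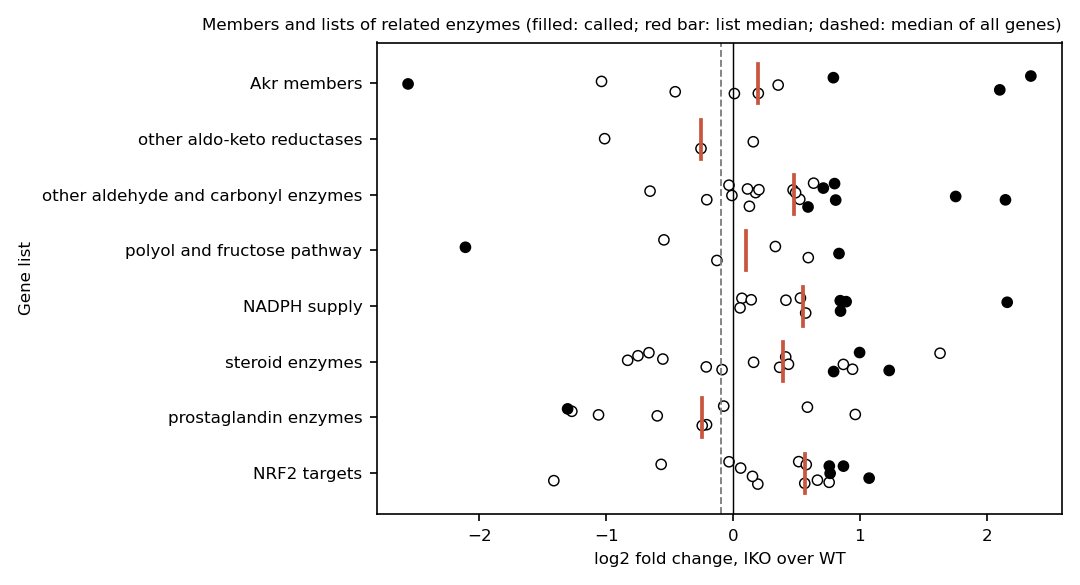
Log2 fold change, IKO over WT mice (x axis), of the 9 aldo-keto reductase genes and of each tested gene in 7 lists of related genes (rows), with filled points for genes called by edgeR, a red bar at the median of each row and a dashed line at the median of all genes tested (-0.09). The called points of the aldehyde, NADPH, steroid and NRF2 rows all lie to the right of 0, and Akr1c14, Slc2a2 and Hpgds are the called points on the left.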

How the data were processed

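Libraries of total RNA from ileal mucosa of 7 WT and 7 IKO mice were aligned to mm10 with HISAT2 2.0.5 and counted with featureCounts 1.5.0-p3, per the labels; the strand setting and the treatment of reads that fit several genes are not given in the sources used here. The authors deposited raw counts per gene and FPKM values; the FPKM formula is not given in the sources used here, but recomputation showed that the values equal counts per kilobase of deposited gene length divided by a DESeq2 size factor, up to a constant. The submitters' processing notes also name DESeq2 1.16.1.

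Counts were tested with edgeR 4.0.16 (filterByExpr, TMM, quasi-likelihood, genotype only, Benjamini-Hochberg over all 13846 genes, calls at adjusted p under 0.05). DESeq2 1.42.0, limma 3.58.1 on log2(FPKM + 1) and log2(FPKM + 0.1), other filters and scalings, a replicate block and leaving out mice were the 24 alternatives. Neighbouring levels were compared on log2(FPKM + 0.1). The members and the gene lists were chosen with earlier results of these data known. All 9 members are named; of each list at most 4 called genes with the largest change were eligible, or, where fewer than 2 were called, its 2 highest genes. The fits were tested on simulated data with known changes. Positions are from the deposited table and GENCODE M21, promoters from RefSeq GRCm38.p6, and alignments from MAFFT 7.526 (R 4.3.3, Python 3.11.15). Totals of 14749669 to 21557468 counts per mouse set the precision, and every pair of libraries differed by more than sampling noise (chi-square per degree of freedom of at least 18.5). The genes nearest to Akr1b10 are not reported here.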

Additional observations from a re-analysis of the deposited data

Results flagged for a closer look

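Of 20 groups of 7 mice examined (the log2 CPM of each of the 9 members and the mitochondrial share of counts, in each genotype), 2 held a mouse far from the others, where chance alone gives about 1 in 20. Both concern the share of counts from mitochondrially encoded genes and neither concerns a member. WT 3 had 23.9%, with a gap to the next WT mouse of 0.676 of the group's range, and IKO 4 had 50.3%, with a gap to the next IKO mouse of 0.944 of the range. Without mitochondrially encoded genes in the table, the same 4 aldo-keto reductase genes were called.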

How the results depend on the processing

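Akr1b7, Akr1b8 and Akr1c14 kept their direction and call in all 24 alternative fits, and Akr1b3, Akr1b10, Akr1c12, Akr1c13 and Akr1c19 were called in none. Akr1a1 lost its call with the replicate block (log2 fold change 0.78) and with WT 3, WT 4 and IKO 4 left out together (log2 fold change 0.70), which left 3 members called in each. Leaving out 1 mouse always gave 4 members called. The correlation of deviations in the 7 same-number pairs of mice ran from -0.31 to 0.23, and 1 of 7 was above 0.1. Whether the replicate numbers pair the mice was not tested. With the replicate numbers as a block 362 genes, 7 listed genes and 0 neighbours were called. Against 1200 genes, 20 listed genes and 1 neighbour in the main fit, DESeq2 called 2571 genes and 4 neighbours, edgeR with no filter on low counts 508 genes, 12 listed genes and 2 neighbours, and limma with no filter 614 genes and 2 neighbours. Both filtered limma fits called 2 neighbours, and with the 3 mice left out together 433 genes and 9 listed genes were called. Leaving out 1 mouse gave 515 to 1371 genes, 12 to 21 listed genes and 1 to 2 neighbours, with the lowest count of genes without IKO 5. Neighbouring levels that differed in WT numbered 4, and 0 without WT 3 or without WT 4, where 6 mice cannot pass the adjustment unless at least 6 of 8 neighbours reach their smallest p. No pair of members passed the adjustment for co-variation under the 4 alternatives run (log2(FPKM + 0.1), without WT 3, without WT 4 and without IKO 4), but with 6 mice left in a genotype a single pair there cannot pass it. The share called higher was 607 of 1200 in the main fit and 346 of 508 with no filter, where the median log2 fold change of all genes was -0.32 in place of -0.09; the cause was not tested. Counts of 19 to 109 per WT mouse limit the precision for Akr1b8.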
